A study of Homo sapiens with 6 samples.

Results

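Molecular chaperones are proteins that bind unfolded or partly folded polypeptides and help them reach or keep their native shape. HSP70 proteins bind exposed hydrophobic stretches under control of ATP, J-domain proteins (the DNAJA, DNAJB and DNAJC classes) deliver substrates to them, and the HSP110 proteins exchange their nucleotide. HSP90 acts later on signalling proteins and receptors, while the chaperonins, CCT/TRiC in the cytosol and HSPD1 with HSPE1 in mitochondria, fold proteins inside a closed chamber. The genes described here are the protein-coding genes of GENCODE v44 whose names begin with HSPA, HSPB, HSPD, HSPE, HSPH, HSP90, DNAJ or CCT followed by a digit, and TCP1. The rule matched 86 genes, of which 53 had at least 1 edited C on their own strand among 7671 genes edited in the whole data set, through 79 of 9809 isoforms. No measured value entered the rule itself, which was chosen with earlier results of these data known. HSPBP1 and HSPBAP1, partners of chaperones rather than chaperones, match by the first letters of their names and were kept.

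The 6 libraries came from HEK293T, a line derived from human embryonic kidney, which the cell line field of the labels spells HEK293XT. All cells were fixed with methanol before treatment, and total RNA depleted of ribosomal RNA was read as full-length cDNA on a PacBio instrument. In RBFOX2-INSCRIBE (replicates 1 and 2), a rabbit antibody to the splicing factor RBFOX2 recruited Apo1-Nb, a purified fusion of the cytidine deaminase APOBEC1 to an anti-rabbit nanobody, so that Cs of RNA near RBFOX2 could be turned into U. The enzyme-only control (replicates 2 and 3 by their titles, numbered 1 and 2 in another field) received Apo1-Nb without the antibody, and the buffer-only control (replicates 1 and 2) received neither. The measure used for a gene is its number of distinct edited Cs, that is, the positions at which a library lists any C-to-U edit on the gene's strand. Since the values list edited fractions without read numbers, the depth behind them is unknown, and a gene with more RNA cannot be told apart from a gene edited at more of its Cs. Exact permutation of 2 libraries against 2 (two-sided) gives p = 0.33 at the least, and p-values measure the spread between these libraries, for which nothing in the labels states separate cultures.

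Library-wide facts bear on every value below. Over all genes, the RBFOX2-INSCRIBE libraries listed 200921 and 206087 edited Cs, the enzyme-only libraries 86189 and 153995, and the buffer-only libraries 72888 and 71568. The enzyme-only libraries thus differed from each other by more than enzyme-only replicate 2 differed from buffer-only. Of 6 genes used to mark HEK293 cells, 5 had listed edits (KRT8 had none), and 6 markers of liver, blood, glia, endothelium and fibroblasts had none in any library.

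RBFOX2 binds the hexamer UGCAUG. On the strand of the gene, and in exons of listed isoforms, 27 of the 53 edited chaperone genes (50.9%) hold it, beside 57.9% of all genes, and 2.59% of their Cs lie within 50 nt of it, beside 2.62% of all Cs. Windows of 30 bases from hg38, printed 5′ to 3′ on the strand of the gene with the hexamer in capitals (TGCATG in DNA letters), are shown for 8 genes with Cs near it that were edited in both RBFOX2-INSCRIBE libraries and in no other library. These are the 5 genes with over 1 such C and, of the 7 with 1, the first 3 by name.

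DNAJB9, 3′ UTR, chr7:108573431-108573460, plus strand: tattttgacaagTGCATGatttcactttaa
DNAJB9, 3′ UTR, chr7:108573738-108573767, plus strand: ctaattcaaagtTGCATGttctatgacatc
DNAJB4, 3′ UTR, chr1:78016359-78016388, plus strand: ggttcattaaatTGCATGaatagagacggg
DNAJB6, 3′ UTR, chr7:157386140-157386169, plus strand: gttttctagttgTGCATGaatgctggcaac
DNAJB6, 3′ UTR, chr7:157416966-157416995, plus strand: cattatttcgttTGCATGatgtattgcttc
HSPA9, 3′ UTR, chr5:138555785-138555814, minus strand: tcatttttcagcTGCATGtaaaaggaggta
CCT8, coding, chr21:29065060-29065089, minus strand: cctcttcagtatTGCATGgcatggttttta
CCT2, coding, chr12:69597692-69597721, plus strand: cagaaagatcatTGCATGatgctctttgtg
CCT7, coding, chr2:73250389-73250418, plus strand: cagagcggtcccTGCATGatgccatcatga
DNAJA1, 3′ UTR, chr9:33039669-33039698, plus strand: acgtggagaattTGCATGcgtaatatagga

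Chaperone genes together held 3588 and 3482 distinct edited Cs in RBFOX2-INSCRIBE, 1476 and 2971 with enzyme only and 1620 and 1604 in the buffer-only control. Edits were therefore listed in the chaperones in every library, and enzyme-only replicate 2 held fewer than either buffer-only library. As a share of all edited Cs, the chaperones made up 1.79% and 1.69% in RBFOX2-INSCRIBE, 1.71% and 1.93% in enzyme-only, and 2.22% and 2.24% in buffer-only. Their share in RBFOX2-INSCRIBE lay below that in buffer-only without overlap, by 0.494 percentage points (exact permutation test, p = 0.33, the smallest possible), whereas RBFOX2-INSCRIBE and enzyme-only overlapped (p = 0.67). The edited fraction at these sites was low: its median over isoform and position was 0.147% and 0.150% in RBFOX2-INSCRIBE, then 0.197% and 0.128% in enzyme-only and 0.118% in both buffer-only libraries, while the medians of all genes lay between 0.518% and 0.763%.

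Most of the edited Cs sat in 2 families. The HSP70 and HSP110 genes held 1086 and 1064 edited Cs in RBFOX2-INSCRIBE, 408 and 947 with enzyme only and 565 and 510 in buffer-only, from 10 edited genes of 15. CCT/TRiC held 1010 and 927, then 453 and 838, then 485 and 493, from 8 edited genes of 10. In both families enzyme-only replicate 3 came close to RBFOX2-INSCRIBE, and enzyme-only replicate 2 lay below both buffer-only libraries. The DNAJB class held 386 and 399 edited Cs in RBFOX2-INSCRIBE, 159 and 258 with enzyme only and 130 and 137 in buffer-only, from 7 edited genes of 12. In this sum every enzyme-only value lay above buffer-only. DNAJB6 (60 and 89 beside 61 and 60) and DNAJB1 (28 and 59 beside 37 and 35) did not show this order. The same order of sums was found in DNAJC, from 327 and 308 through 136 and 233 to 108 and 103 with 18 edited genes of 29, and in DNAJA, from 220 and 238 through 100 and 176 to 66 and 74 with 3 of 4. HSP90 (3 of 3 genes) held 374 and 381, 133 and 357, and 185 and 176 edited Cs. The mitochondrial chaperonin (2 edited genes of 3 names, the third a read-through with MOB4) held 185 and 165, 83 and 162, and 81 and 108. In the HSPB class, 2 of 10 genes had any edit: HSPB1 had 1 edited C in enzyme-only replicate 2, and HSPBP1 had 3 in that library and 3 in buffer-only replicate 2.

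**Figure D1:**
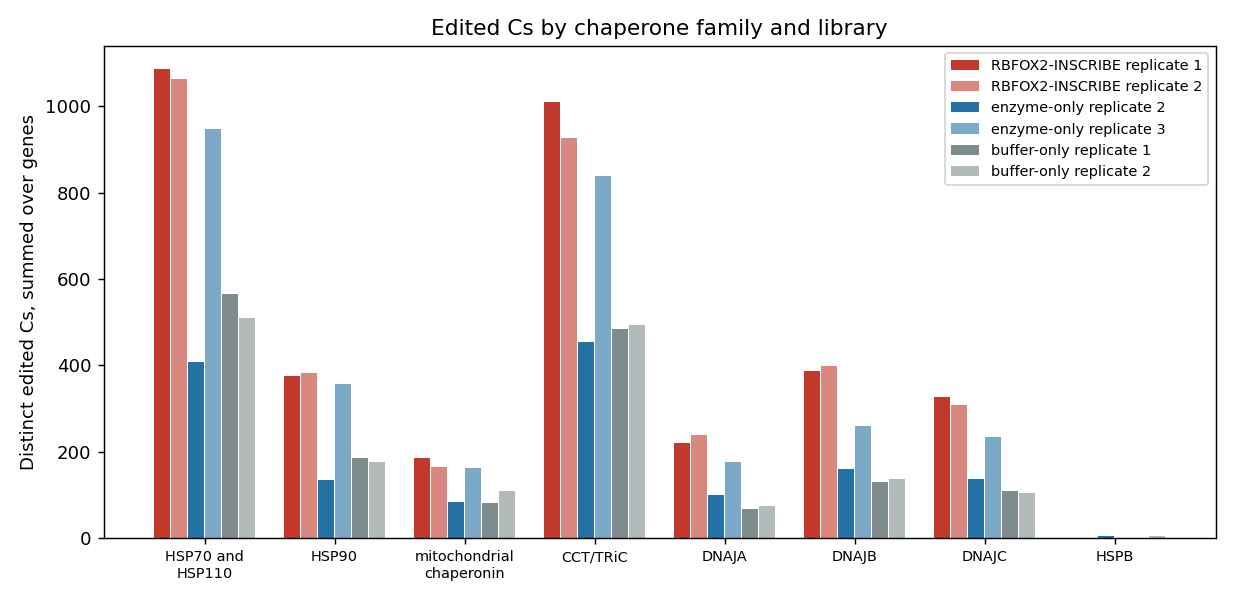
Bars give the number of distinct edited Cs (vertical axis from 0) summed over the genes of each chaperone family (horizontal axis) in each of the 6 libraries, with 1 bar per library. In HSP70 and HSP110, enzyme-only replicate 2 (408) lies below buffer-only (565 and 510), while in DNAJB its 159 lies above 130 and 137.

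Among HSP70 proteins, HSPA5 (BiP, the HSP70 of the endoplasmic reticulum) had the largest number of distinct edited Cs of all chaperones. It had 271 and 282 edited Cs in RBFOX2-INSCRIBE, 91 and 250 with enzyme only and 222 and 187 in buffer-only, out of 842 Cs in its listed isoforms. Both buffer-only values lay within the enzyme-only range and below RBFOX2-INSCRIBE. The fractions at these Cs were low, with medians of 0.022% and 0.026% in RBFOX2-INSCRIBE. There, 3 and 2 Cs of HSPA5 reached a fraction of at least 0.02. HSPA8, the constitutive HSP70 of the cytosol, had 165 and 147, 51 and 145, and 73 and 74 edited Cs in the 3 groups in the same order. HSPA4, an HSP110-type exchange factor, had 139 and 154, 68 and 111, and 75 and 63. In HSPA4 both RBFOX2-INSCRIBE libraries lay above every control library, and in HSPA8 the lower of them exceeded enzyme-only replicate 3 by 2 edited Cs. HSPA13, a microsomal HSP70 relative, had 130 and 145, 68 and 136, and 40 and 29, so that both enzyme-only libraries exceeded both buffer-only libraries. HSPA1B, a stress-inducible HSP70, ran the other way from most genes, with 14 and 4 edited Cs in RBFOX2-INSCRIBE, 20 and 13 with enzyme only and 7 and 8 in buffer-only. Its near-identical copy HSPA1A had no listed edit, and because the authors kept unique isoform assignments, how reads were divided between these copies is uncertain.

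HSP90AB1, the constitutive cytosolic HSP90, had 168 and 155 edited Cs in RBFOX2-INSCRIBE, 67 and 163 with enzyme only and 93 and 87 in buffer-only. HSP90B1 (GRP94, the HSP90 of the endoplasmic reticulum) had 143 and 136, 44 and 146, and 77 and 72. In both, enzyme-only replicate 3 fell within or above the RBFOX2-INSCRIBE range. HSP90AA1, the stress-inducible cytosolic form, had 63 and 90, 22 and 48, and 15 and 17, with all RBFOX2-INSCRIBE values above all controls. HSPD1, the mitochondrial chaperonin HSP60, had 178 and 165, 81 and 161, and 80 and 107 edited Cs, while its lid HSPE1 had at most 7 in any library.

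CCT/TRiC is the ring that folds actin and tubulin. TCP1, its alpha subunit, had 143 and 152 edited Cs in RBFOX2-INSCRIBE, 81 and 147 with enzyme only and 85 and 99 in buffer-only. CCT4 had 162 and 149, 63 and 141, and 67 and 69, and CCT6A had 142 and 149, 62 and 126, and 70 and 68. In each of the 8 edited subunits, RBFOX2-INSCRIBE lay above buffer-only without overlap, as it did in 80.6% of all genes tested. CCT2 had the largest difference of the ring against buffer-only, with 140 and 112 edited Cs against 46 and 40, and CCT7 the smallest, with 86 and 61 against 50 and 46.

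J-domain proteins spread more widely. DNAJA2 and DNAJA1, cytosolic partners of HSP70, had 104 and 125 and 101 and 97 edited Cs in RBFOX2-INSCRIBE, against 24 and 37 and 31 and 26 in buffer-only. Their enzyme-only libraries lay between, at 44 and 74 for DNAJA2 and at 49 and 83 for DNAJA1. DNAJA3, a mitochondrial J-domain protein, had 15 and 16, 7 and 19, and 11 and 11, and its RBFOX2-INSCRIBE values lay inside the enzyme-only range. DNAJB6, which hinders aggregation of polyglutamine proteins, had 147 and 149, 60 and 89, and 61 and 60. DNAJB1, the classic HSP40, had 60 and 66, 28 and 59, and 37 and 35. DNAJB14, anchored in the membrane of the endoplasmic reticulum, had 68 and 77, 25 and 51, and 18 and 17. In DNAJC, DNAJC8 (found with the spliceosome) had 71 and 35, 29 and 51, and 24 and 20, DNAJC7 had 46 and 40, 19 and 35, and 14 and 13, and DNAJC9, a histone co-chaperone, had 48 and 31, 28 and 27, and 13 and 14. Of these 3, DNAJC8 overlapped between RBFOX2-INSCRIBE and enzyme-only.

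**Figure D2:**
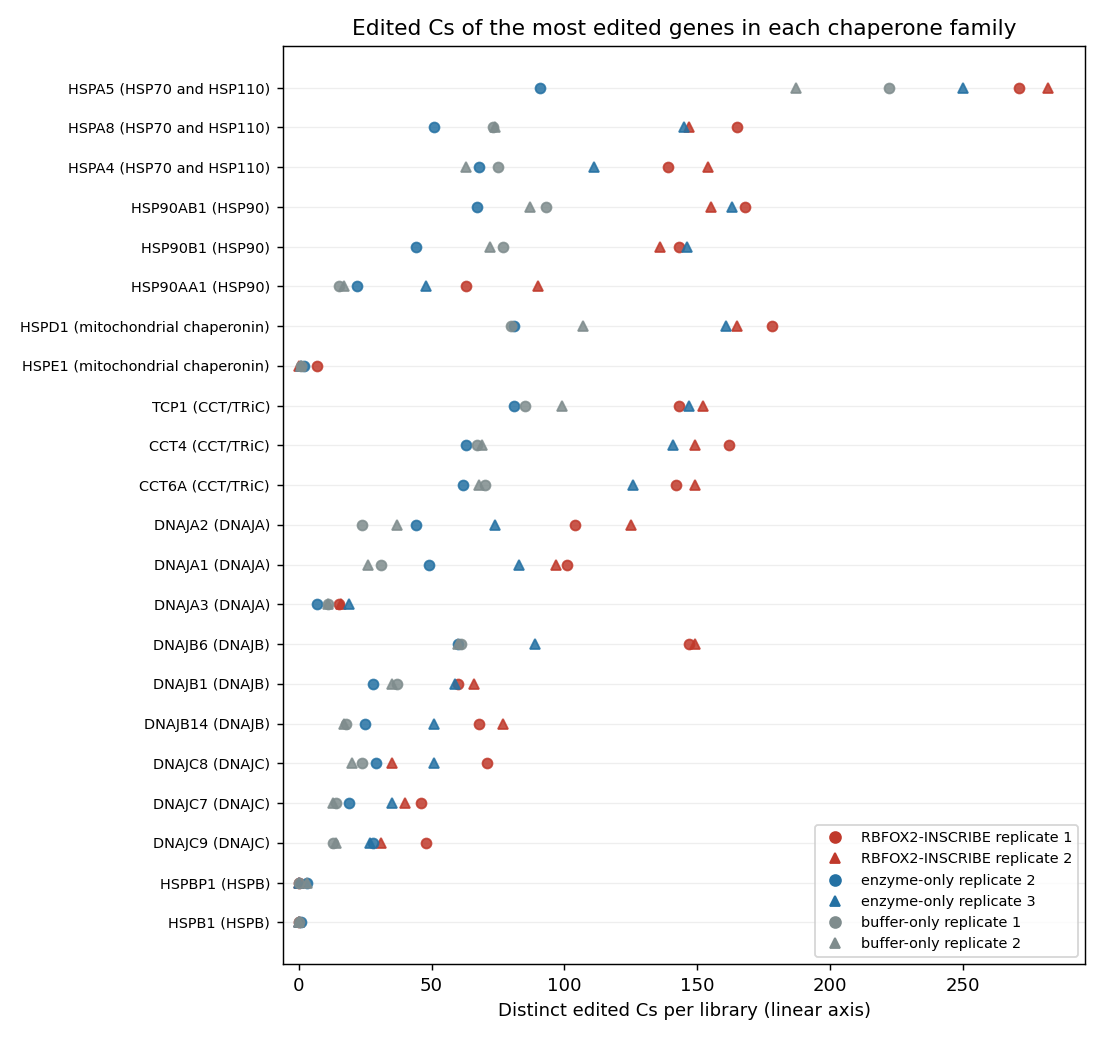
Points give the number of distinct edited Cs (horizontal axis, linear) of the 3 most edited genes of each family, or of all its edited genes where it has fewer, in each library, with colour for the group and symbol for the replicate. HSPA5 reaches 282, and enzyme-only replicate 3 lies close to RBFOX2-INSCRIBE for HSP90B1 (146 beside 143 and 136) but not for DNAJB6 (89 beside 147 and 149).

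The comparison of RBFOX2-INSCRIBE with enzyme-only asks what the antibody adds to the enzyme. No chaperone gene was called higher or lower by limma at an adjusted p of 0.05, out of 42 that averaged 5 or more edited Cs, where 0.530% of all 5092 genes tested were called. At an unadjusted p under 0.05 there were 4 chaperone genes, all higher in RBFOX2-INSCRIBE, beside 18.3% of all genes. These were DNAJC10 (ERdj5, a disulphide reductase), DNAJB9 (ERdj4, a co-chaperone of HSPA5), DNAJC11 and HSPA4L. DNAJB9 had 58 and 50 edited Cs in RBFOX2-INSCRIBE against 18 and 27 in enzyme-only, a log2 difference of 1.27 ± 0.63 (SE; limma adjusted p = 0.260). DNAJC10 had 32 and 51 against 8 and 26, a log2 difference of 1.45 ± 0.66 (limma adjusted p = 0.226). DNAJC11 and HSPA4L gave 1.35 ± 0.68 and 1.22 ± 0.62, with limma adjusted p values of 0.264 and 0.269.

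The median log2 difference of the 42 chaperone genes was 0.78, beside 0.85 over all genes, and 40 of the 42 were above 0. In 28 of them RBFOX2-INSCRIBE lay above enzyme-only without overlap, as it did in 51.8% of all genes tested. The exceptions in sign were HSPA1B and DNAJB11, an endoplasmic reticulum J-domain protein with 8 and 5 edited Cs against 10 and 4. These values turned on the enzyme-only libraries. Without enzyme-only replicate 3, 30 of 43 chaperone genes were called higher, beside 47.3% of all genes (48.1% in either direction), with a median of 1.22, beside 1.30 over all genes. Without enzyme-only replicate 2, DNAJB6 alone of 43 chaperone genes was called (log2 difference 0.73), beside 5.36% of all genes, and the median was 0.29, beside 0.35. After the edited Cs of all libraries were scaled to the same total, the chaperone median was -0.08, beside 0.02 over all genes, and no chaperone gene was called.

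The comparison with buffer-only shows enzyme and antibody together against the errors and natural edits that remain without either. Of 40 chaperone genes tested, 34 were called higher in RBFOX2-INSCRIBE and none lower by limma, beside 63.8% of all 4807 genes called higher and 63.9% called in either direction. All 8 CCT/TRiC genes, all 3 HSP90 genes, HSPD1, 8 of 9 HSP70 and HSP110 genes, 2 of 3 DNAJA, 5 of 6 DNAJB and 7 of 10 DNAJC genes were called. The median log2 difference of the chaperones was 1.19, beside 1.54 over all genes. In 37 of the 40 genes the groups did not overlap, with RBFOX2-INSCRIBE above, beside 80.6% of all genes tested.

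The largest differences belonged to DNAJB9, with 58 and 50 edited Cs against 7 and 6 (log2 difference 2.96 ± 0.40, limma adjusted p = 5.40e-07), and to DNAJB4, a cytosolic partner of HSP70, with 40 and 44 against 4 and 7 (2.87 ± 0.46, adjusted p = 6.16e-06). HSP90AA1 rose by 2.20 ± 0.29, DNAJB14 by 2.02 ± 0.28 and HSPA13 by 2.00 ± 0.20 on the log2 scale, with limma adjusted p values of 4.19e-07, 8.19e-07 and 9.15e-09. HSPA14 and DNAJC13, which averaged fewer than 20 edited Cs, rose by 2.09 and 2.11. The smallest differences among called genes were those of HSPA5, at 0.44 ± 0.11 (limma adjusted p = 0.00115), and CCT7, at 0.59 ± 0.22 (limma adjusted p = 0.0232). Of the genes that did not pass, HSPA1B (0.02), DNAJC2 (0.39), DNAJA3 (0.48) and DNAJB12 (0.49) lay lower than CCT7. DNAJC19, part of the motor that imports proteins into mitochondria, had 10 and 9 edited Cs against 1 and 1, a log2 difference of 2.74 ± 1.25 that did not pass the test (limma adjusted p = 0.0578).

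Scaling the libraries to the same total of edited Cs lowered these differences and turned the sign of many. The chaperone median became -0.30, beside 0.01 over all genes, and 11 of 39 chaperone genes were called, 2 higher and 9 lower, beside 15.1% of all genes (8.76% higher and 6.30% lower). The 2 higher were DNAJB9 (1.52) and DNAJB4 (1.45). The 9 lower were HSPA5 (-1.05), CCT7 (-0.89), CCT3, TCP1, HSP90AB1, CCT5, HSPH1, HSPD1 and HSP90B1, so that the direction for these genes depends on whether a library's total is taken as part of the difference. Leaving out either RBFOX2-INSCRIBE library left 0 chaperone genes and 0 of all genes called by limma, with 25 chaperone genes at an unadjusted p under 0.05 without replicate 1 (38.9% of all genes) and 24 without replicate 2 (37.8%).

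**Figure D3:**
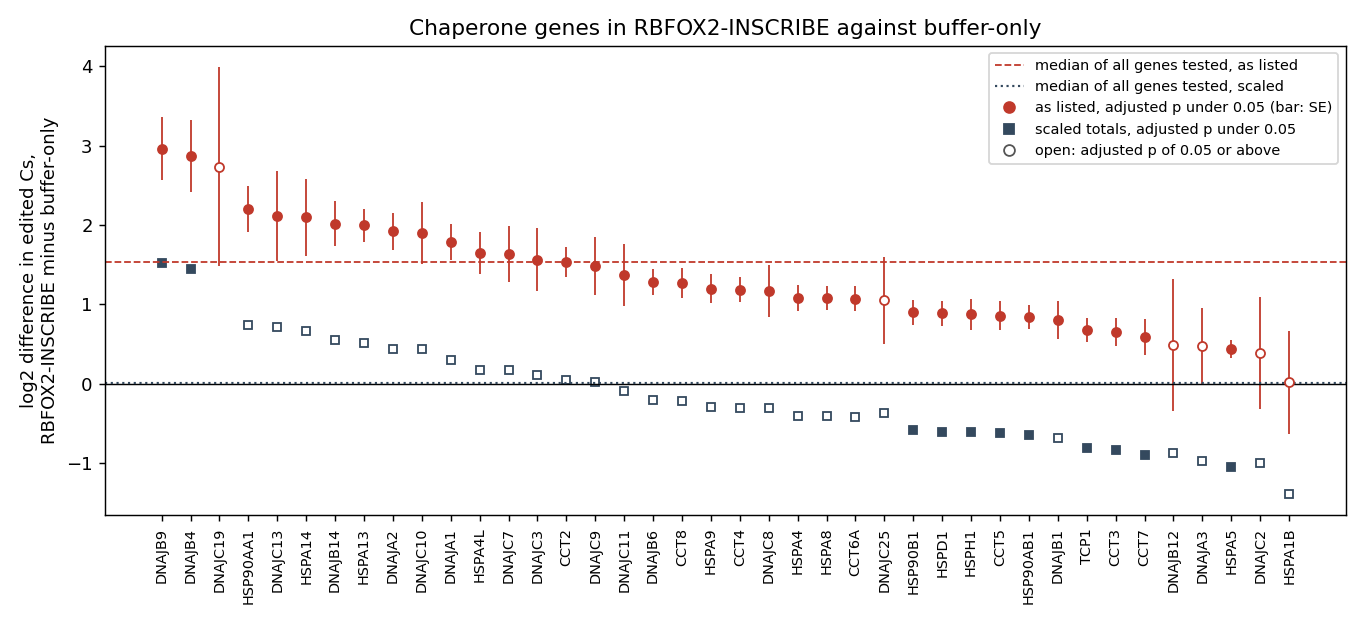
For each chaperone gene tested (horizontal axis), round points give the log2 difference in edited Cs between RBFOX2-INSCRIBE and buffer-only with bars for the SE, and squares the same after scaling to equal totals; filled symbols passed an adjusted p of 0.05, and DNAJC19 was not tested after scaling. The round points run from 2.96 for DNAJB9 to 0.02 for HSPA1B, mostly under the median of all genes (1.54), and the filled squares are 2 above 0 and 9 below it.

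The comparison of enzyme-only with buffer-only shows the enzyme without the antibody. None of 38 chaperone genes was called by limma, beside 0.0237% of 4216 genes. At an unadjusted p under 0.05 there were 4, beside 13.5% of all genes: HSPA13 (log2 difference 1.48 ± 0.60), DNAJB4 (1.75 ± 0.71), DNAJB9 (1.69 ± 0.70) and HSPA14, a ribosome-associated HSP70 (1.56 ± 0.71), with limma adjusted p values from 0.276 to 0.334. DNAJB4 had 18 and 20 edited Cs in enzyme-only against 4 and 7, and DNAJB9 had 18 and 27 against 7 and 6. The chaperone median was 0.37, beside 0.69 over all genes, and in 15 of 38 genes both enzyme-only libraries exceeded both buffer-only libraries, beside 44.3% of all genes. Without enzyme-only replicate 3 the chaperone median was -0.11, and without replicate 2 it was 0.97, with no chaperone gene called either way. After scaling, HSPA5 alone was called, lower in enzyme-only (log2 difference -1.10, limma adjusted p = 0.0126), beside 0.0958% of all genes, all of them lower.

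APOBEC1 prefers Cs that follow A or U. In chaperone genes, 35.9% and 36.3% of the edited Cs of RBFOX2-INSCRIBE followed A, as did 30.7% and 34.4% in enzyme-only and 18.5% and 20.3% in buffer-only. Among all Cs of these genes, 23.6% follow A. Edited Cs after G showed the opposite order, at 22.2% and 21.6%, 27.8% and 24.6%, and 38.1% and 37.0%, where 24.9% of all Cs follow G. In both measures the 3 groups did not overlap (exact permutation test between each pair of groups, p = 0.33, the smallest possible). In HSPA5 the share after A or U came to 49.1% and 48.6% for RBFOX2-INSCRIBE, 49.5% and 54.0% for enzyme-only and 42.3% and 46.5% for buffer-only, so that enzyme-only was not below RBFOX2-INSCRIBE. In DNAJB9 it was 93.1% and 94.0%, then 88.9% in both enzyme-only libraries, and 71.4% and 50% in buffer-only, where it rests on 7 and 6 edited Cs. With only the edited Cs after A or U counted (chosen after seeing the data), RBFOX2-INSCRIBE was called higher than buffer-only in 35 of 37 chaperone genes, beside 86.7% of all genes called, and the chaperone median was 1.94, beside 2.43. DNAJB4 was then the 1 chaperone gene called higher in enzyme-only than in buffer-only (limma adjusted p = 0.0424), out of 34 tested, beside 5.57% of all genes called.

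Counted at any edited fraction, edited Cs of chaperones lay mainly in coding sequence. Their 3′ UTRs held 33.3% and 34.4% of the edited Cs in RBFOX2-INSCRIBE, 28.4% and 29.8% with enzyme only and 24.0% and 23.3% in buffer-only, while 44.2% of all Cs of these genes lie in 3′ UTRs. Over all genes the same shares were 60.4% and 61.3%, 50.9% and 54.9%, and 44.9% and 44.6%. In the chaperones, RBFOX2-INSCRIBE exceeded enzyme-only by 4.73 percentage points and buffer-only by 10.2, and enzyme-only exceeded buffer-only by 5.48, without overlap between groups (exact permutation test, p = 0.33 each). With an edited fraction of at least 0.02, most edited Cs lay in 3′ UTRs instead. The mean shares there were 58.83% in RBFOX2-INSCRIBE, 57.15% in enzyme-only and 51.08% in buffer-only. The difference from enzyme-only was then 1.69 points and the groups overlapped (exact permutation test, p = 1). At any fraction, coding sequence held 60.8% and 59.96%, 63.8% and 63.4%, and 67.4% and 68.5% of the edited Cs. Genes differed widely. DNAJB4 had 85% and 81.8% of its RBFOX2-INSCRIBE edits in the 3′ UTR, DNAJB6 had 72.1% and 68.5%, and DNAJA2 had 59.6% and 59.2%. By contrast, HSPA5 had 9.59% and 11.3% there, HSP90AB1 had 13.1% and 9.03% and CCT8 had 4.03% and 5.71%. HSP90B1 gave 85.3% and 87.5% because a C was assigned to the 3′ UTR if any listed isoform places it there, and one of its isoforms, annotated for nonsense-mediated decay, ends its coding sequence early. Without HSP90B1, the shares of the chaperones averaged 31.6%, 26.7% and 20.4% in the 3 groups.

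**Figure D4:**
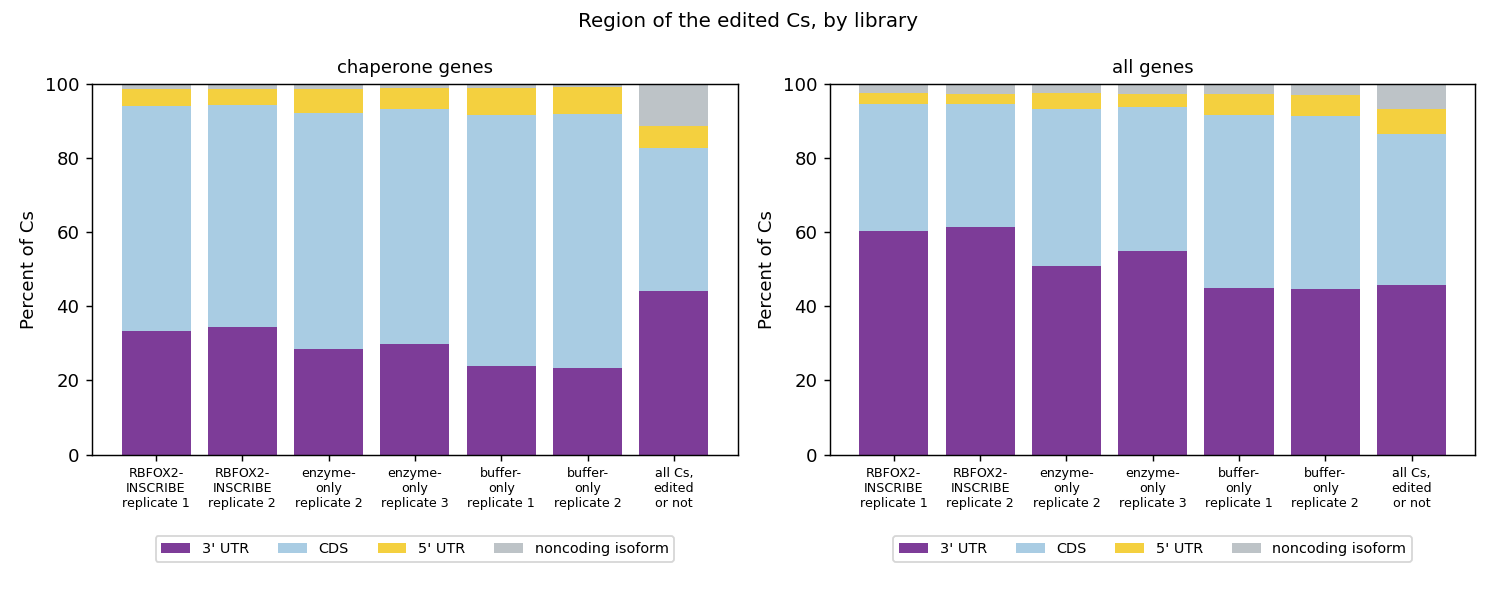
Stacked bars give the percent of edited Cs (vertical axis) in the 3′ UTR, coding sequence, 5′ UTR and noncoding isoforms, for chaperone genes and for all genes, in each library and, in the last bar, over all Cs whether edited or not. The 3′ UTR part of the chaperone bars falls from 33.3% and 34.4% in RBFOX2-INSCRIBE to 24.0% and 23.3% in buffer-only, and is smaller than in the bars of all genes.

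Near UGCAUG, the edited share of chaperone Cs was highest in RBFOX2-INSCRIBE. Of 1097 chaperone Cs within 50 nt of the hexamer, 103 and 92 were edited in RBFOX2-INSCRIBE, 24 and 63 in enzyme-only and 32 and 25 in buffer-only. Divided by the edited share of the other chaperone Cs, this gave ratios of 1.11 and 1.03, 0.624 and 0.819, and 0.763 and 0.598. Both RBFOX2-INSCRIBE libraries thus exceeded all controls (exact permutation test, p = 0.33 against either control, the smallest possible), by 0.348 over enzyme-only and 0.389 over buffer-only. The same ratios over all genes were 1.82 and 1.84 in RBFOX2-INSCRIBE and between 0.961 and 1.07 in the controls. When each gene's own edited share set the number expected near its hexamers (also chosen after seeing the data), the chaperone ratios were 1.30 and 1.21, 0.754 and 1.12, and 1.12 and 0.857. For edited Cs with a fraction of at least 0.02, the counts near the hexamer were 9 and 9 in RBFOX2-INSCRIBE, 1 and 1 in enzyme-only and 2 and 1 in buffer-only.

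Distinct chaperone Cs edited in any library numbered 8703, of which 460 (5.29%, beside 4.33% over all genes) were edited in both RBFOX2-INSCRIBE libraries and in no other. Of those 460, 23 (5%) lay within 50 nt of UGCAUG, in 12 genes, and 365 (79.3%) followed A or U. Over all genes, 8.84% of the Cs of this class lay near the hexamer and 89.1% followed A or U. The same class for enzyme-only held 85 chaperone Cs, 1 of them (1.18%) near the hexamer, beside 2.14% over all genes. For buffer-only it held 63, 4 of them (6.35%) near, beside 2.09% over all genes. In chaperones the buffer-only share, on few Cs, thus exceeded the 5% of RBFOX2-INSCRIBE. Of these control Cs, 65.9% in enzyme-only and 25.4% in buffer-only followed A or U. DNAJB9 had 5 of the 23, DNAJB4, DNAJB6 and HSPA9 had 3 each, CCT8 had 2, and 7 further genes had 1 each.

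The 8 genes with windows above were picked for Cs edited in both RBFOX2-INSCRIBE libraries and in no other. The counts near their hexamers include those Cs, so an excess over the controls there is partly fixed by the choice. Around the DNAJB4 hexamer, whose 8 nearby Cs were edited at 4 and 3 positions in RBFOX2-INSCRIBE, the C at chr1:78016385, 9 nt past its 3′ end, was edited in 5.56% and 2.36% of reads. The Cs at 78016390 and 78016363 were edited in 2.78% and 1.57%, and in 0.926% and 2.38%. Enzyme-only replicate 2 had 2 edited Cs near this hexamer and the other controls none. In DNAJB9 the hexamer at chr7:108573443-108573448 had 4 and 6 edited Cs nearby in RBFOX2-INSCRIBE, 0 and 4 in enzyme-only and 1 and 0 in buffer-only, and the hexamer at chr7:108573750-108573755 had 3 and 6, 1 and 4, and 0 and 0. The most edited of the DNAJB9 Cs listed in both RBFOX2-INSCRIBE libraries and in no other, 4 nt before the first hexamer at 108573439, had 0.413% and 3.62%. In HSPA9 (mortalin, the mitochondrial HSP70), 8 and 9 Cs near the hexamer were edited in RBFOX2-INSCRIBE, 1 and 5 in enzyme-only and 1 and 0 in buffer-only. DNAJB6 had 157 Cs near its hexamers, of which 26 and 17, 4 and 5, and 6 and 2 were edited in the 3 groups. In CCT8 all libraries held edited Cs near the hexamer, at 10 and 12, 2 and 6, and 2 and 3. RBFOX2-INSCRIBE overlapped or met enzyme-only in CCT7, with 4 and 3, 2 and 3, and 5 and 5, in CCT2, with 5 and 4, 1 and 5, and 2 and 2, in DNAJA1, with 8 and 7, 2 and 8, and 4 and 4, and in DNAJB9, with 7 and 12 against 1 and 8. DNAJC10 holds 8 hexamers in its 3′ UTR, and no C near them was edited in any library. Its 3′ UTR held only 3 and 13 edited Cs in RBFOX2-INSCRIBE, 4 and 5 in enzyme-only and 2 and 2 in buffer-only. How many reads reached these hexamers is unknown. Without read numbers the error of each fraction is unknown, and a fraction of several percent can come from few reads. Whether the controls covered these Cs to a like depth is unknown too.

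**Figure D5:**
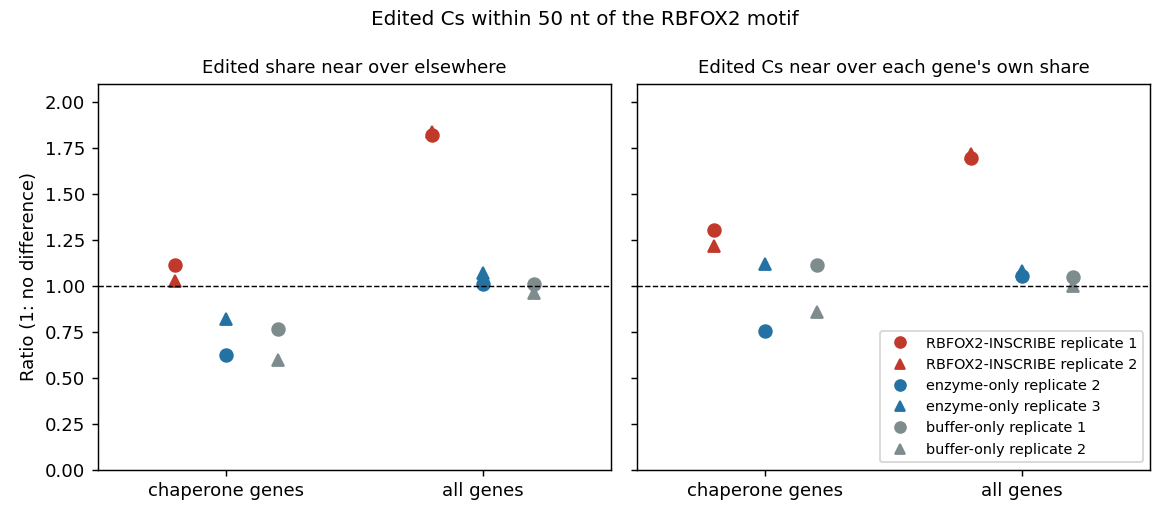
Points give, for each library, the edited share of Cs within 50 nt of UGCAUG over that of the other Cs (left) and the edited Cs near it over the number from each gene's own edited share (right), for chaperone genes and all genes, with colour for the group and symbol for the replicate. Chaperone genes in RBFOX2-INSCRIBE reach 1.11 and 1.03 on the left and 1.30 and 1.21 on the right, above their controls and below the 1.82 and 1.84 of all genes on the left.

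Of the 53 edited chaperone genes, 37 had 1 listed isoform, and isoform pairs could be tested in 6 genes. The test asks whether the 2 most edited isoforms of a gene differ in their change between RBFOX2-INSCRIBE and enzyme-only. None of the 6 was called by limma, at an adjusted or at an unadjusted p of 0.05, where 0.00% of 583 genes were called and 4.46% had an unadjusted p under 0.05. HSPA9 had the smallest p: its coding isoform ENST00000297185 had 136 and 129 edited Cs in RBFOX2-INSCRIBE against 37 and 113 in enzyme-only, and its retained-intron isoform ENST00000649692 had 4 and 3 against 10 and 6 (difference of log2 differences 2.08 ± 1.04, limma adjusted p = 0.802). For DNAJB14 and HSP90B1 this difference was 1.07 ± 0.64 and -0.67 ± 0.69, with limma adjusted p values of 0.802 and 0.872.

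A straight line was fitted to the mean editsC of RBFOX2-INSCRIBE against that of enzyme-only (editsC being the edited Cs with a fraction of at least 0.02, divided by all Cs of the isoform), over isoforms with such an edit in all 4 libraries. Of 16 chaperone isoforms, 2 lay over 1.5 SD above it, beside 6.63% of 3258 isoforms. DNAJB4 isoform ENST00000370763 had 10 and 10 such Cs in RBFOX2-INSCRIBE and 8 and 1 in enzyme-only, an editsC of 2.31% where the line gave 1.28% (residual 1.79 SD). DNAJC25 isoform ENST00000313525, which encodes a membrane-bound J-domain protein, had 4 and 12 against 2 and 4, an editsC of 1.82% where the line gave 0.931% (1.54 SD). Neither passed 2 SD. Without RBFOX2-INSCRIBE replicate 2, no chaperone isoform was selected. Without RBFOX2-INSCRIBE replicate 1 there were 3, the third being DNAJC24. Without enzyme-only replicate 2 these were DNAJB4 and DNAJC19, and without enzyme-only replicate 3 DNAJC25 was the 1 left.

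Partners of the chaperones were counted in the same way. Of 40 listed (co-chaperones of HSP90 and HSP70, folding enzymes of the endoplasmic reticulum, prefoldin, mitochondrial factors and heat shock factors), 36 had edits and 31 were tested. Against buffer-only, 21 of the 31 were called higher and none lower by limma, beside 63.8% of all genes called higher. Their median log2 difference was 0.99, beside 1.54 over all genes. Against enzyme-only none was called, beside 0.530% of all genes. An unadjusted limma p under 0.05 was found for 5 partners, beside 18.3% of all genes. The partner median was 0.77, beside 0.85 over all genes. PDIA4, PDIA6 and PDIA3, disulphide isomerases of the endoplasmic reticulum, had the most edited Cs. PDIA4 had 177 and 183 in RBFOX2-INSCRIBE, 82 and 187 in enzyme-only and 149 and 133 in buffer-only, a difference from buffer-only of 0.35 ± 0.13 on the log2 scale (limma adjusted p = 0.0190), close to that of HSPA5. For PDIA6 the difference was 0.88 ± 0.14 and for PDIA3 it was 0.81 ± 0.14. Of the heat shock factors, HSF2 had 46 and 52, 18 and 43, and 18 and 10 edited Cs (1.83 ± 0.35, limma adjusted p = 8.15e-05), and HSF1 had 15 and 6, 5 and 7, and 2 and 2 (2.01 ± 0.94, limma adjusted p = 0.0647).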

How the data were processed

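For 6 libraries, the authors deposited 1 value per isoform and position, the edited fraction of its reads. Per the study's methods, circular consensus reads were aligned to hg38, kept on the correct strand and assigned uniquely to isoforms, C-to-U edits were called, and edits found across all samples and dbSNP positions were removed. Isoforms were named here with GENCODE 44, in which 99.74% to 99.76% of the listed isoform positions were found; all edited positions had a C in hg38. Distinct edited Cs on the gene's strand were counted per gene and library. Genes with a mean of at least 5 were compared with limma 3.58.1 (R 4.3.3, trend and robust settings) on log2(edited Cs + 0.5), Benjamini-Hochberg adjusted over all genes, and two-sided exact permutation tests compared single values of libraries. The fits were tested on simulated data. Alternatives changed the pseudocount, the filters, the scaling, the strand, the unit (isoforms), the groups in the fit, the replicate block, the motif window and the region rule, or left out each library. Members, lists and tests were chosen with earlier results of these data known. Named genes were the 3 most edited of each family, those called where 10 or fewer were, otherwise the 5 largest and 2 smallest called differences among genes with a mean of at least 20, up to 8 with Cs near UGCAUG edited in both RBFOX2-INSCRIBE libraries alone, the 3 smallest p for isoform pairs, isoforms off the line, and the 3 most edited partners. Others were named after their values were seen.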

Additional observations from a re-analysis of the deposited data

How the results depend on the processing

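Depth at single Cs is not given, so the error of an edited fraction is unknown at any level. Most chaperone edits had low fractions. A fraction as low as the 0.0169% of an HSPA5 C in RBFOX2-INSCRIBE replicate 2 requires many reads. High fractions can come from few reads, so the cut at 0.02 can keep Cs that were read few times. Against buffer-only, 34 chaperone genes were called; the count was 4 with an edit fraction of at least 0.02 (10 genes tested; 46.3% of all genes called), 11 after scaling to equal totals (mostly lower), 20 with all 3 groups in the fit (47.8% of all genes), and from 0 to 35 when a library was left out, being 0 without either RBFOX2-INSCRIBE library. Scaling gave -1.05 for HSPA5 and -0.89 for CCT7, and medians of -0.0769 against enzyme-only, -0.30 against buffer-only and -0.30 for enzyme-only against buffer-only. Against enzyme-only, 0 were called, and 0 to 30 when a library was left out (over all genes 27, 2462 without enzyme-only replicate 3, 282 without enzyme-only replicate 2 and 0 after scaling). For enzyme-only against buffer-only the count was 0, 1 after scaling, 1 with only Cs after A or U and 0 without any library, and the median ran from -0.11 (without enzyme-only replicate 3) to 0.97 (without replicate 2). The replicate block, by the numbers of the characteristics field, gave 0, 34 and 0 called genes in these 3 comparisons and 0 for isoform pairs. It changed no call count of chaperones, and deviations of same-numbered libraries correlated at 0.12, 0.03 and -0.04 across genes, so that the numbers were not taken as pairs. The linear model selected 2 of 16 chaperone isoforms (6.63% of all isoforms), and 0 of 16 over 2 SD (4.17% of all). It selected 8 of 54 without the fraction filter (5.71% of all). When an edit in any of 4 libraries sufficed, it selected 5 of 63 (6.70% of all). Its selections without a library are given above. The chaperone share in RBFOX2-INSCRIBE minus enzyme-only was -0.0832 percentage points, 0.0227 with a fraction of at least 0.02, and from -0.192 to 0.0252 without a library. The ratio near UGCAUG in enzyme-only minus buffer-only was 0.0411, -0.163 with a window of 25 nt, -0.465 with a fraction of at least 0.02, -0.0508 with each gene's own share, and from -0.0560 to 0.138 without a library. The other 102 values of these comparisons kept their direction and call, or their count within 1.5 times. Among values of single genes and medians, 208 did so, 22 lost and 5 gained a call and 6 changed sign. The causes were not tested.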

Other observations

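Positions listed on the strand opposite to the isoform, which read as G-to-A there, were uneven among the chaperones. They were found in 15 of the 53 edited genes, and CCT4 and HSP90B1 held 558 of 856 such positions summed over the libraries (65.2%), while HSPA5, the gene with the most edited Cs, had none. They were left out of all counts in the report, and counting both strands left 34 chaperone genes called against buffer-only.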
